A study of Homo sapiens with 12 samples.

Results

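The HOX clusters of the human genome hold a small set of microRNA (miRNA) genes, and the 6 studied here are MIR10A, MIR10B, MIR196A1, MIR196A2, MIR196B and MIR615. They were chosen by name and position, as miRNA precursors inside a HOX cluster, and are 6 of the 1881 precursor genes in the deposited tables. Small RNA was sequenced from the melanoma cell line A375, which carries an activating BRAF mutation, and from its dabrafenib-resistant derivative A375-BIR (12 libraries, 3 per group). A375-BIR was obtained by growing A375 in rising concentrations of dabrafenib, an inhibitor of mutant BRAF, so that line identity and selection in the drug cannot be told apart. The 4 groups were A375 in 0.1% DMSO, A375 in 200 nM dabrafenib, A375-BIR in 0.1% DMSO and A375-BIR in 200 nM dabrafenib, each for 48 h.

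HOX genes encode transcription factors that set positional identity along the body axis, and their miRNAs sit between them and are often transcribed with them. Members of the miR-196 family repress HOX mRNAs, including HOXB8, HOXC8 and HOXB7, and miR-196a is known in melanoma as a miRNA whose loss releases HOX targets. MiR-10b is known for promoting invasion in breast cancer, and miR-10a and miR-10b lie beside the HOX4 genes of their clusters.

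The mature sequences show which members can be told apart by sequencing. Sequences from RefSeq (GRCh38.p14) matched all 6 members, but for MIR10B only the 3p arm. Those shown run 5′ to 3′ with the seed, bases 2 to 8, in capitals. The 5p arms of miR-196a and miR-196b share a seed, miR-10a-5p has another, and miR-100-5p is a relative of miR-10 outside the HOX clusters.
hsa-miR-196a-5p: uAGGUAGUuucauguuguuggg
hsa-miR-196b-5p: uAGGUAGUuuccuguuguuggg
hsa-miR-10a-5p: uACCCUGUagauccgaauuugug
hsa-miR-100-5p: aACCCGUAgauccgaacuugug
hsa-miR-615-3p: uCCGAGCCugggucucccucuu

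MIR196A1 and MIR196A2 both give hsa-miR-196a-5p, so that a read of this arm cannot be placed at either copy. Counted from 1 at the 5′ end, hsa-miR-196a-5p and hsa-miR-196b-5p differ by the substitution A12C, outside the seed, and reads of MIR196B can therefore be told from those of the copies. MiR-10b-5p is the 5p arm of MIR10B, and without its sequence it was not compared with miR-10a-5p. The 3p arms of the miR-196a copies are shown because they differ and can place a read.
hsa-miR-196a-1-3p: cAACAACAuuaaaccacccga
hsa-miR-196a-3p: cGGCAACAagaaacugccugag

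The members lie in 4 clusters (hg38, GENCODE v44). MIR196B, in the HOXA cluster at chr7:27169480-27169563 on the minus strand, is intronic in 2 HOXA9 transcripts and exonic in 1. MIR10A, at chr17:48579838-48579947 on the minus strand, lies in an intron of 6 HOXB3 transcripts between HOXB4 and HOXB5, and MIR196A1, at chr17:48632490-48632559 on the same strand, lies between HOXB9 and HOXB13 in an intron of 1 HOXB7 transcript. In the HOXC cluster, MIR196A2 at chr12:53991738-53991847 lies between HOXC10 and HOXC9 in an intron of 1 HOXC6 transcript, and MIR615 at chr12:54033950-54034045 is intronic in HOXC5 and HOXC4, both on the plus strand. MIR10B, in the HOXD cluster at chr2:176150303-176150412 on the plus strand, is intronic in 1 HOXD3 transcript and lies before HOXD4.

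The libraries held between 35069.5 and 122792 expected counts, and those in dabrafenib were the shallower ones. Of each library's counts, from 0.399% to 0.790% fell on the 6 members. Of 20 melanocyte and melanoma lineage miRNAs, between 9 and 14 had a count in each group, led by MIR146A in A375 (mean of 26383 CPM in DMSO) and by MIR221 in A375-BIR (51056 CPM in DMSO). In CPM of total counts, the median of their sum was 58107 in A375 in DMSO and 30697 in dabrafenib, and 71768 in A375-BIR without and 45226 with the drug, so that it was lower in dabrafenib in both lines. The sum of A375-BIR in DMSO was mostly MIR221 and does not stand for each member of the list. In the authors' comparison of the lines, MIR146A, MIR204, MIR508 and the MIR509 genes were higher in A375, and MIR221 and MIR222 were lower. Of the lists for other cell types only that of liver (MIR122) was at 0 in every group. Some neuronal and blood cell miRNAs had counts in all groups, led by MIR9-1 (means of 48.6 to 99.2 CPM) and MIR150 (17.6 to 132 CPM). Others of these lists did not: MIR124-1, MIR124-2, MIR124-3 and MIR451A were at 0 in every group, and MIR144 in A375-BIR in dabrafenib. The counts of replicate 3 of A375-BIR in DMSO differed from those of replicates 1 and 2 by a chi-square per degree of freedom of 29.4 and 32.1, against 2.50 between replicates 1 and 2. Results in which that library takes part are given without it where it changes a call.

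Levels are given below as CPM (counts scaled to a common library size), scaled by TMM, a factor that corrects each library for its composition. This factor was between 0.693 and 0.822 in A375 in dabrafenib and between 1.04 and 1.19 elsewhere, so that comparisons with this group depend on it. Rows that resemble ribosomal RNA took between 14.4% and 26.3% of the counts in dabrafenib and between 2.65% and 5.59% in DMSO, and their part in the results was not tested beyond leaving those rows out. Fold changes are log2 values with an SE. This SE was derived from edgeR's quasi-likelihood test, as the size of the fold change divided by the square root of the F statistic. FDR is the adjusted p of the same test over 175 tested precursors, with a threshold of 0.05. The labels call the replicates biological, and p-values measure only the spread between these samples. In such bulk samples fewer cells of a type and less RNA per cell cannot be told apart.

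In the HOXA cluster, MIR196B was higher in A375-BIR than in A375. In A375 in DMSO it was at 107, 82.8 and 72.9 CPM, and in dabrafenib at 129, 112 and 263 CPM. In A375-BIR in DMSO it was at 459, 646 and 384 CPM, and in dabrafenib at 458, 327 and 401 CPM. The 6 libraries of A375-BIR were all above the 6 of A375, although A375 had only between 4 and 11 counts of this miRNA per library. The line difference was 2.49 ± 0.31 in DMSO (edgeR FDR = 1.78e-05), which is 5.63-fold, and 1.25 ± 0.38 in dabrafenib (edgeR FDR = 0.0144). Without replicate 2 of A375 in dabrafenib the latter was 1.03 (edgeR FDR = 0.0654), and by DESeq2's Wald test it was 1.203 and missed the threshold too. Over its 23 alternatives the adjusted p in dabrafenib was between 3.14e-04 and 0.0654.

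For the dabrafenib response of MIR196B, the groups of A375 did not overlap with TMM, and those of A375-BIR did. In CPM of total counts the groups of A375 overlapped too, at 80.6 to 116 in DMSO and 77.6 to 216 in dabrafenib. The fold changes were 0.90 ± 0.43 in A375 (edgeR FDR = 0.152) and -0.34 ± 0.28 in A375-BIR (edgeR FDR = 0.41), neither past the threshold. With a library left out they were between 0.47 and 1.12 in A375 and between -0.54 and -0.10 in A375-BIR. With a filter of 1 CPM the value in A375 was 0.49, and with no filter 0.51. The difference between these responses was -1.25 ± 0.51 (edgeR FDR = 0.19). The order of the group means was A375-BIR in DMSO, 496 ± 135 CPM (SD, n = 3), A375-BIR in dabrafenib, 395 ± 65.5 CPM, A375 in dabrafenib, 168 ± 82.8 CPM, and A375 in DMSO, 87.5 ± 17.5 CPM. The groups of A375-BIR overlapped with each other.

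The sum of the miR-196a copies in the HOXB and HOXC clusters measures miR-196a whatever the division of its reads between these copies. In replicate 1 of A375-BIR in DMSO it was 164.5 counts, not a whole number. The sum was at 1033, 775 and 906 CPM in A375 in DMSO and at 103, 308 and 329 CPM in A375 in dabrafenib. In A375-BIR it was at 1481, 1440.3 and 1296 CPM in DMSO and at 943, 1012 and 802 CPM in dabrafenib. A375 in dabrafenib was lowest, with all 3 libraries below every other library, and rested on 4, 11 and 10 counts. A375-BIR in DMSO was highest, and A375 in DMSO and A375-BIR in dabrafenib overlapped, with means of 905 ± 129 and 919 ± 107 CPM.

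MiR-196a fell in A375 on dabrafenib. The summed copies changed by -1.90 ± 0.30 in A375 (edgeR FDR = 2.81e-04), a 3.73-fold lower level, and kept this direction and side of the threshold in all 21 alternatives. Their lowest library decided part of the size, since without replicate 1 of A375 in dabrafenib the value was -1.50. In A375-BIR the change was -0.61 ± 0.23 and did not pass (edgeR FDR = 0.0774), although the groups did not overlap. It passed without replicate 3 of A375-BIR in DMSO (-0.70) and without replicate 1 of A375 in dabrafenib (-0.61), and over its alternatives the adjusted p was between 0.0158 and 0.196. The difference between the responses was 1.29 ± 0.39 (edgeR FDR = 0.127), with an adjusted p between 0.0291 and 0.252 over its alternatives, so that a smaller response of A375-BIR passed the threshold under 4 of 20 alternatives and not in the fit reported here.

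Between the lines, the summed copies were higher in A375-BIR. The difference was 1.92 ± 0.31 in dabrafenib (edgeR FDR = 1.79e-04), 3.79-fold, and 0.64 ± 0.22 in DMSO (edgeR FDR = 0.0302), 1.55-fold, with groups that did not overlap in either treatment. The difference in DMSO was the less certain: 8 of 21 alternatives lost the call. With the replicate number as a block it was 0.63 (edgeR FDR = 0.0541), and with DESeq2's size factors and Wald test 0.47 each. It also missed the threshold without replicate 1 (0.50) or 2 (0.62) of A375-BIR in DMSO, without replicate 2 of A375-BIR in dabrafenib (0.57) and without replicate 2 (0.53) or 3 (0.64) of A375 in DMSO. Its adjusted p was between 0.00535 and 0.138 over its alternatives. Over both treatments the difference was 1.28 ± 0.19 (edgeR FDR = 5.55e-05) and kept its side of the threshold in all 20 alternatives.

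**Figure D1:**
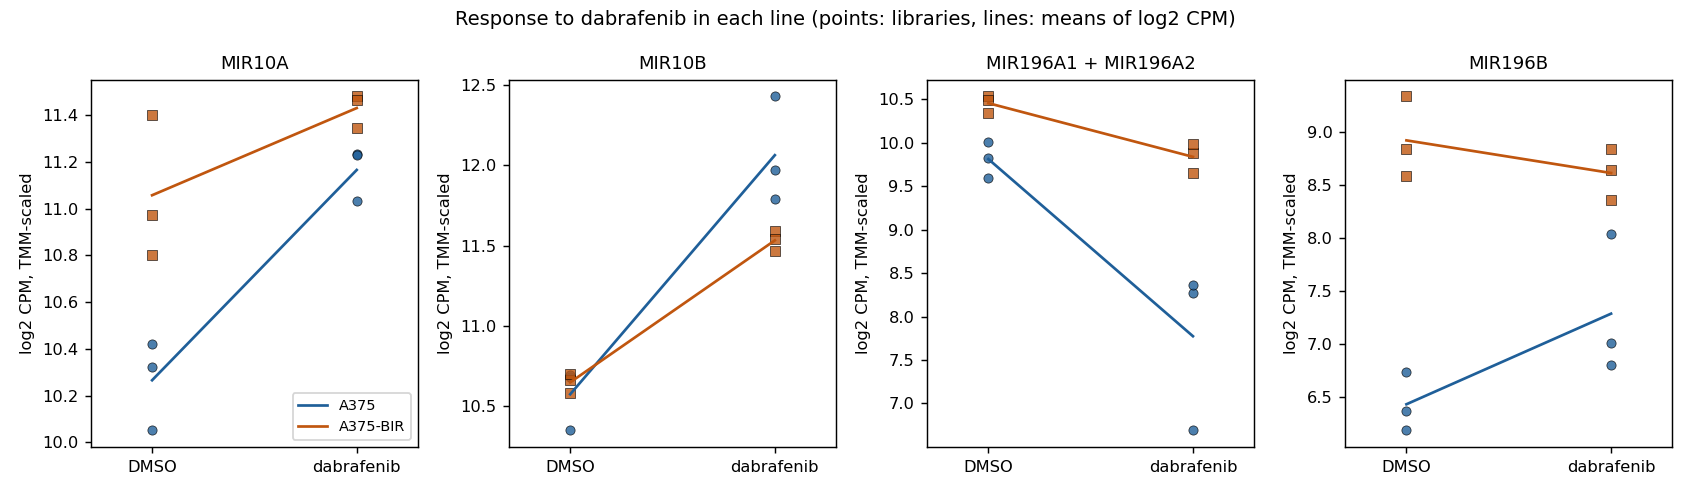
Response to dabrafenib of MIR10A, MIR10B, the summed miR-196a copies and MIR196B, on a log2 axis of TMM-scaled CPM that does not start at 0. Points are libraries (3 per group), lines join the means of log2 CPM, blue circles are A375 and orange squares A375-BIR. The miR-196a sum of A375 falls to between 103 and 329 CPM in dabrafenib, and MIR10B rises in both lines.

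The separate copies gave values of the same direction, but their division between HOXB and HOXC rests on how reads were assigned. MIR196A1 was at 487, 350.0 and 401 CPM in A375 in DMSO, at 51.7, 154 and 132 CPM in A375 in dabrafenib, at 605, 611 and 559 CPM in A375-BIR in DMSO and at 337, 379.5 and 321 CPM in A375-BIR in dabrafenib. MIR196A2 was at 546, 425 and 505 CPM, at 51.7, 154 and 197 CPM, at 875, 829 and 737 CPM and at 606, 633 and 481 CPM in the same groups. Both were lowest in A375 in dabrafenib. In each of the 12 libraries the count of MIR196A2 minus that of MIR196A1 was a whole number, while each copy alone was whole in 4 of 12. This difference was 26 to 30 counts in A375-BIR in DMSO, 8 to 17 in A375-BIR in dabrafenib, 5 to 10 in A375 in DMSO and 0 to 2 in A375 in dabrafenib. How the reads of each arm were divided was not tested.

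By copy, the line difference in dabrafenib was 1.58 ± 0.35 for MIR196A1 (edgeR FDR = 0.00216) and 2.07 ± 0.34 for MIR196A2 (edgeR FDR = 2.16e-04). In DMSO it was 0.74 ± 0.22 for MIR196A2 (edgeR FDR = 0.0117), which missed the threshold without replicate 2 of A375 in DMSO (0.63, edgeR FDR = 0.0765), and 0.54 ± 0.22 for MIR196A1 (edgeR FDR = 0.0547), which passed it without replicate 3 of A375-BIR in DMSO (0.56), replicate 1 of A375 in DMSO (0.67) or replicate 1 (0.53) or 2 (0.54) of A375 in dabrafenib. On dabrafenib, the copies fell in A375 by 1.81 and 1.84 on the log2 scale (edgeR FDR = 8.73e-04 and 7.75e-04). In A375-BIR MIR196A1 passed at -0.76 ± 0.24 (edgeR FDR = 0.0369) and MIR196A2 did not, at -0.51 ± 0.23 (edgeR FDR = 0.133). The call of MIR196A1 was lost in 11 of 23 alternatives. Among these were DESeq2's Wald test (-0.85), only the libraries compared (-0.68), copies summed (-0.61), seed families summed (-0.52) and the fits without any of 6 libraries, namely replicates 1 and 2 of A375-BIR in DMSO, all 3 of A375-BIR in dabrafenib and replicate 3 of A375 in DMSO, with values between -0.87 and -0.67.

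MIR10A, the other HOXB member, was higher in A375-BIR in DMSO and higher in A375 on dabrafenib. It was at 1371, 1061 and 1281 CPM in A375 in DMSO and at 2095, 2408 and 2402 CPM in A375 in dabrafenib. In A375-BIR it was at 1782, 2009 and 2703 CPM in DMSO and at 2857, 2604 and 2825 CPM in dabrafenib. A375 in DMSO was lowest and overlapped with no other group. The group means were 1238 ± 159.6, 2302 ± 179, 2165 ± 479.6 and 2762 ± 138 CPM (SD, n = 3) in that order.

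The line difference of MIR10A was 0.81 ± 0.19 in DMSO (edgeR FDR = 0.00252), 1.75-fold, and 0.60 without the replicate 3 of A375-BIR that stood apart (edgeR FDR = 0.0106). In dabrafenib it was 0.27 ± 0.19 and did not pass (edgeR FDR = 0.289), but was 0.74 with total counts in place of TMM (edgeR FDR = 0.0118). The response of A375 was 0.89 ± 0.19 (edgeR FDR = 0.00311), and it was lost with total counts (0.39, edgeR FDR = 0.167) and with weaker filters on low counts. In A375-BIR the response was 0.35 ± 0.19 (edgeR FDR = 0.195), and without replicate 3 in DMSO it was 0.52 (edgeR FDR = 0.0447). The difference between responses was -0.54 ± 0.27 (edgeR FDR = 0.301).

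MIR10B, in the HOXD cluster, rose on dabrafenib in both lines. It was at 1306, 1641 and 1657 CPM in A375 in DMSO and at 3543, 5517 and 4014 CPM in dabrafenib. In A375-BIR it was at 1620.4, 1534 and 1667 CPM in DMSO and at 2829.8, 3081 and 2986 CPM in dabrafenib. The DMSO groups of both lines overlapped and were the lowest, and with TMM the 3 libraries of A375 in dabrafenib were the highest. In CPM of total counts, replicate 1 of A375 in dabrafenib (2884) was below all libraries of A375-BIR in dabrafenib (2994 to 3456). The response was 1.50 ± 0.19 in A375 (edgeR FDR = 2.87e-05), 2.83-fold, and 0.89 ± 0.19 in A375-BIR (edgeR FDR = 0.00387), 1.85-fold, with no overlap in either line. The call of A375 held in all 23 alternatives, with values between 0.99 and 1.63. That of A375-BIR was lost with no filter on low counts (0.65, edgeR FDR = 0.0674).

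Between the lines MIR10B gave no stable difference. It was 0.06 ± 0.18 in DMSO (edgeR FDR = 0.825), where the direction reversed with DESeq2's size factors (-0.11). Over both treatments it was -0.24 ± 0.13 (edgeR FDR = 0.128), and the direction reversed with total counts (0.01). In dabrafenib it was -0.55 ± 0.19 (edgeR FDR = 0.026). The lower level in A375-BIR in dabrafenib missed the threshold with total counts (-0.06, edgeR FDR = 0.807) and without replicate 1 of A375-BIR in DMSO (-0.47), replicate 1 (-0.52) or 2 (-0.58) of A375-BIR in dabrafenib or replicate 2 of A375 in dabrafenib (-0.34). The difference between responses was -0.61 ± 0.26 (edgeR FDR = 0.19), and between -0.67 and -0.13 over its alternatives.

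MIR615, in the HOXC cluster beside HOXC5, was below the filter on low counts and was tested only under weaker filters. It was at 59.4, 97.9 and 83.3 CPM in A375 in DMSO, at 51.7, 28 and 0 CPM in A375 in dabrafenib, at 27, 31.1 and 54.9 CPM in A375-BIR in DMSO and at 27, 14.9 and 0 CPM in A375-BIR in dabrafenib. These are between 0 and 13 counts, and a count of 0 still allows up to 81.2 CPM of total counts in the A375 library concerned and 63.0 CPM in that of A375-BIR. With a filter of 1 CPM, its change on dabrafenib was -1.87 ± 0.97 in A375 (edgeR FDR = 0.235) and -1.64 ± 1.10 in A375-BIR (edgeR FDR = 0.421), and its line difference was -1.03 ± 0.72 in DMSO (edgeR FDR = 0.359) and -0.80 ± 1.38 in dabrafenib (edgeR FDR = 0.758). With no filter the 4 values were between -1.85 and -0.80, and none passed. In an exact two-sided permutation test of line labels within treatment the line difference of MIR615 gave p = 0.4 (n = 6 libraries per line), and by the same exact permutation test that of MIR10B gave p = 0.145, with a direction that reversed with total counts. MIR10A, MIR196A1, MIR196A2, MIR196B and the summed copies each gave an exact permutation p of 0.005, the smallest that the 400 arrangements can give. These arrangements did not keep same-numbered libraries in DMSO as pairs, which would leave fewer of them and a larger smallest p. The permutation p-values were not adjusted over the members, and those of the copies and their sum rest on shared reads. Lines without overlap, on which the smallest p rests, were found for 61.1% of all tested precursors in DMSO and 50.3% in dabrafenib.

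**Figure D2:**
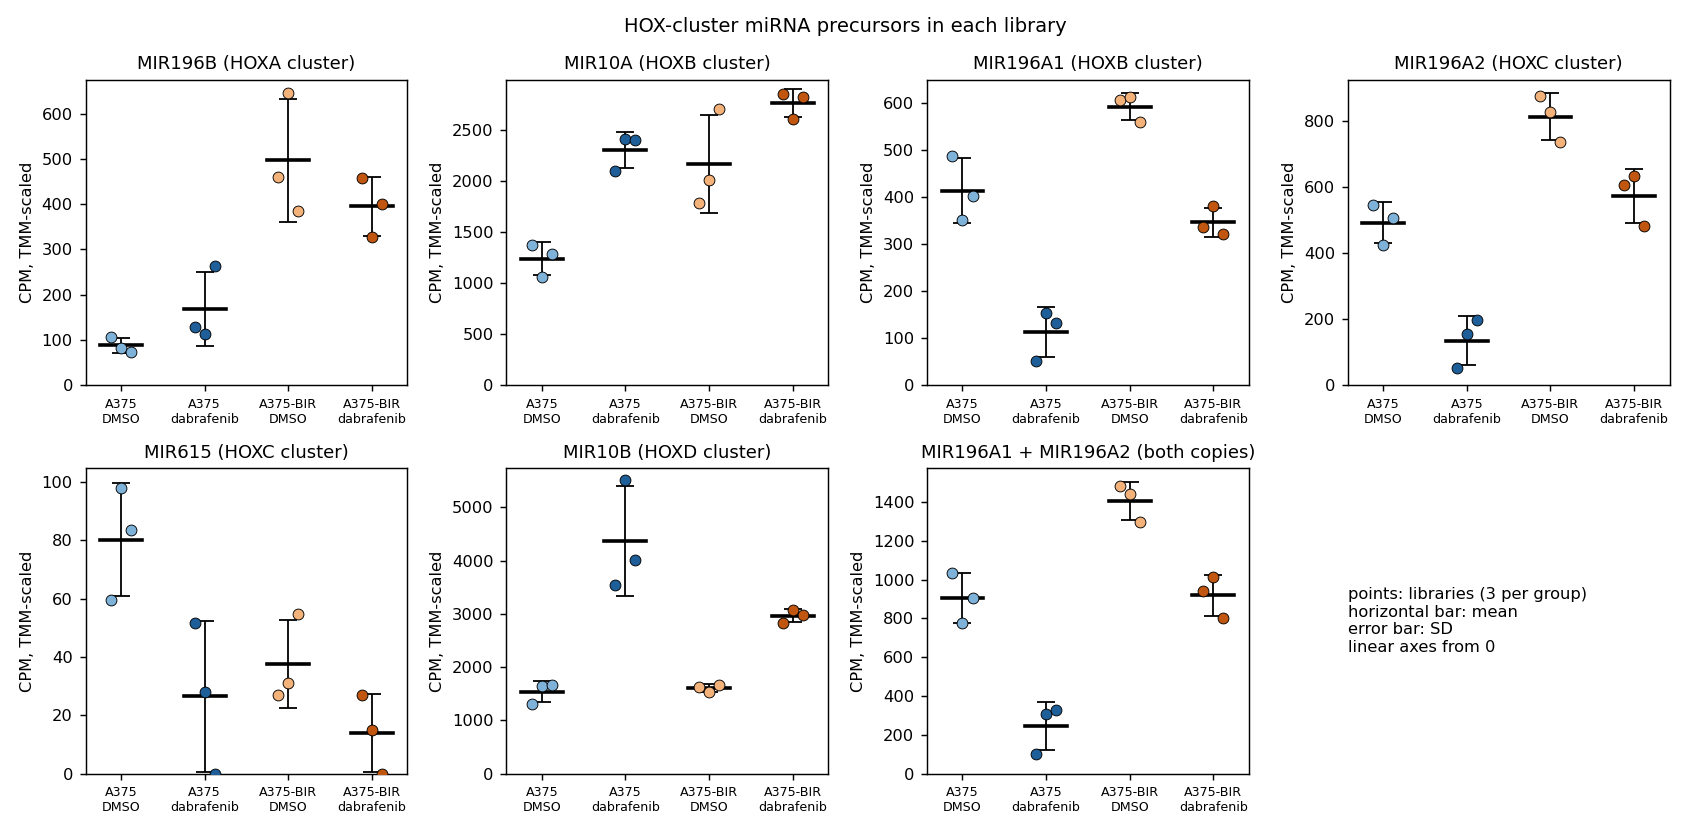
TMM-scaled CPM of each member and of the summed miR-196a copies in the 12 libraries, on linear axes from 0. Points are libraries, horizontal bars the means and error bars the SD of 3 libraries. MIR196B and the summed copies are higher in A375-BIR in each treatment, and MIR10B differs mainly between treatments.

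By cluster, summed CPM of the members were compared without a test. HOXA, which holds MIR196B alone, was at 87.5 ± 17.5 CPM in A375 in DMSO, 168 ± 82.8 in A375 in dabrafenib, 496 ± 135 in A375-BIR in DMSO and 395 ± 65.5 in A375-BIR in dabrafenib (SD, n = 3). HOXB, with MIR10A and MIR196A1, was at 1651 ± 225, 2414 ± 232, 2756 ± 453 and 3108 ± 110.0 CPM. HOXC, with MIR196A2 and MIR615, was at 572 ± 43.5, 161 ± 50.4, 852 ± 55.6 and 587 ± 92.3 CPM, and HOXD, with MIR10B alone, at 1535 ± 198, 4358 ± 1031, 1607.0 ± 67.6 and 2965 ± 127 CPM. With total counts in place of TMM, HOXB in A375 was at 1808 CPM in DMSO and 1869 in dabrafenib, so that the higher level in dabrafenib depended on the scaling. HOXB joined members that moved in opposite directions on dabrafenib in A375, and HOXC was low in A375 in dabrafenib. Its sum there was lower than in every other group, and rested on 2 to 6 counts of MIR196A2 per library. The division of miR-196a reads between HOXB and HOXC is an estimate, so that these sums do not separate the 2 loci for miR-196a.

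Over the members that could be tested, 5 of 6, the counts of calls were read against those of all 175 precursors. In DMSO, 3 of 5 were called (MIR10A, MIR196A2 and MIR196B), against 46.3% of all precursors. All 3 were higher in A375-BIR, against 30.3% called higher and 16.0% called lower over all, and 61.1% of all precursors had groups that did not overlap. In dabrafenib 4 of 5 were called, against 46.3%. Of these 3 were higher (both copies and MIR196B), against 22.3%, and 1 lower (MIR10B), against 24%, where 50.3% of all had no overlap. Over both treatments 4 of 5 were called, all higher, against 60.0% called, 34.3% higher and 25.7% lower. The median of the 5 was 1.06 over both treatments, which is the value of MIR196A1, and the median of all 175 was 0.11. The miR-196a copies share reads, so that their calls are not separate measurements, here and in the responses below.

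For the dabrafenib response of A375, 4 of 5 members were called, against 25.1% of all precursors. Of these 2 were higher (MIR10A and MIR10B), against 18.3%, and 2 lower (the miR-196a copies), against 6.86%, with 44% of all free of overlap. The 2 lower calls rest on shared reads, whose sum gave a single value of -1.90. In A375-BIR 2 of 5 were called, against 20.6% of all precursors, or 36. DESeq2's Wald test did not call MIR196A1 (-0.85). The 36 became 19 with only the libraries compared, and 20 or 22 without replicate 1 or 2 of A375-BIR in DMSO. Of the 2 members called, 1 was higher (MIR10B), against 13.1%, and 1 lower (MIR196A1), against 7.43%, with 37.1% of all free of overlap. In the difference between responses edgeR's quasi-likelihood test called 0 of 5, against 3.43% of all precursors (0.571% higher and 2.86% lower). An unadjusted p under 0.05 was reached by 4 of 5, against 34 of all 175. DESeq2's Wald test and edgeR's likelihood ratio test called 0 of 5. The split of all calls moved with the scaling. In A375 it was 32 higher and 12 lower with TMM, 18 and 44 with total counts, 23 and 23 with DESeq2's size factors and 22 and 17 without the rRNA-like rows.

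In dabrafenib the split between the lines was 39 higher and 42 lower with TMM, 59 and 24 with total counts and 45 and 29 without the rRNA-like rows. In DMSO it was 53 and 28, against 43 and 38 with DESeq2's size factors, and over both treatments 60 and 45, against 72 and 35 with total counts and, with the majority on the other side, 50 and 54 with DESeq2's size factors. For A375-BIR on dabrafenib it was 23 and 13, against 23 and 20 with DESeq2's size factors and 15 and 17 without the rRNA-like rows. For the difference in response it was 1 and 5, against 5 and 3 with total counts and 1 and 1 without those rows.

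**Figure D3:**
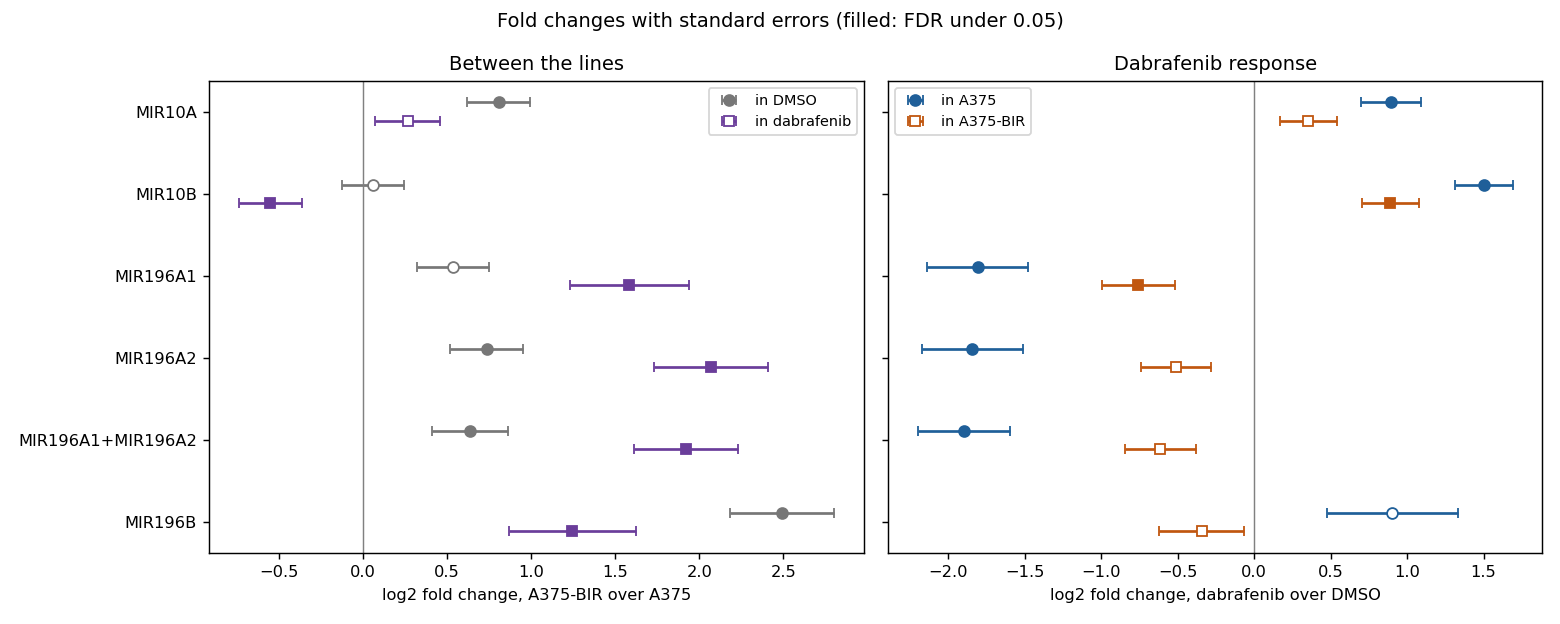
Log2 fold changes of the tested members and of the summed copies between the lines (left, A375-BIR over A375) and on dabrafenib (right, dabrafenib over DMSO). Bars are the SE, and filled symbols mark an edgeR FDR under 0.05. The response of A375 is between -1.90 and -1.81 for the copies and their sum and 1.50 for MIR10B.

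The miR-10 relatives outside the HOX clusters descend from the same ancestral family or are encoded beside its members. MiR-100-5p shares an 11-base run with miR-10a-5p, which starts at base 6 instead of 7, and its seed is a different one. MIR100, which lies near MIR125B1, was at 2529, 1972 and 2375 CPM in A375 in DMSO while A375-BIR had 3673, 5115 and 8334 CPM in the same medium, above every A375 library. Its line difference was 1.32 ± 0.28 in DMSO (edgeR FDR = 0.0014) and 1.49 ± 0.30 in dabrafenib (edgeR FDR = 0.00102). MIR125B1 (1.09 and 1.68) and MIR125B2 (1.39 and 1.44), copies that give the same miR-125b-5p, also passed in both treatments.

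MIR99B differed in DMSO (0.80, edgeR FDR = 0.0296) and rose in A375 on dabrafenib (1.01, edgeR FDR = 0.0231). Of 23 alternatives each, 5 lost the former call and 10 the latter, among them DESeq2's size factors and Wald test for both and total counts for the latter (0.49). With a library left out, the former missed the threshold without replicate 1 of A375-BIR in DMSO (0.81) or replicate 2 (0.77) or 3 (0.62) of A375 in DMSO, and the latter without replicate 2 (0.99) or 3 (0.84) of A375 in DMSO or replicate 2 of A375 in dabrafenib (0.54). MIR125A was not called in either line difference (0.62 and 0.09), although the difference in DMSO passed with a filter of 1 CPM (0.64) and with no filter (0.74). It was at 1044, 1203 and 4033 CPM in A375-BIR in DMSO, the highest being replicate 3, without which the difference in DMSO was -0.30 (edgeR FDR = 0.265). MIR99A, with between 0 and 10 counts, was below the filter. In A375 on dabrafenib MIR125B1 was at -0.54 ± 0.24 (edgeR FDR = 0.132), and passed as lower in 9 of 23 alternatives, such as total counts (-1.04) and the fit without replicate 3 of A375-BIR in DMSO (-0.59).

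Of the 5 tested relatives 4 were called higher in A375-BIR in DMSO, against 30.3% of all precursors, and 3 in dabrafenib, against 22.3%. Both counts include MIR125B1 and MIR125B2, which give the same miR-125b-5p and are not separate measurements of it. On dabrafenib 1 was called in A375, against 25.1%, which was MIR99B by edgeR's tests and MIR125B1 by DESeq2's Wald test. In A375-BIR 0 were called, against 20.6%, and DESeq2's Wald test and edgeR's likelihood ratio test called 0 too. There 0 relatives had an unadjusted p under 0.05, against 62 of all 175 precursors.

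**Figure D4:**
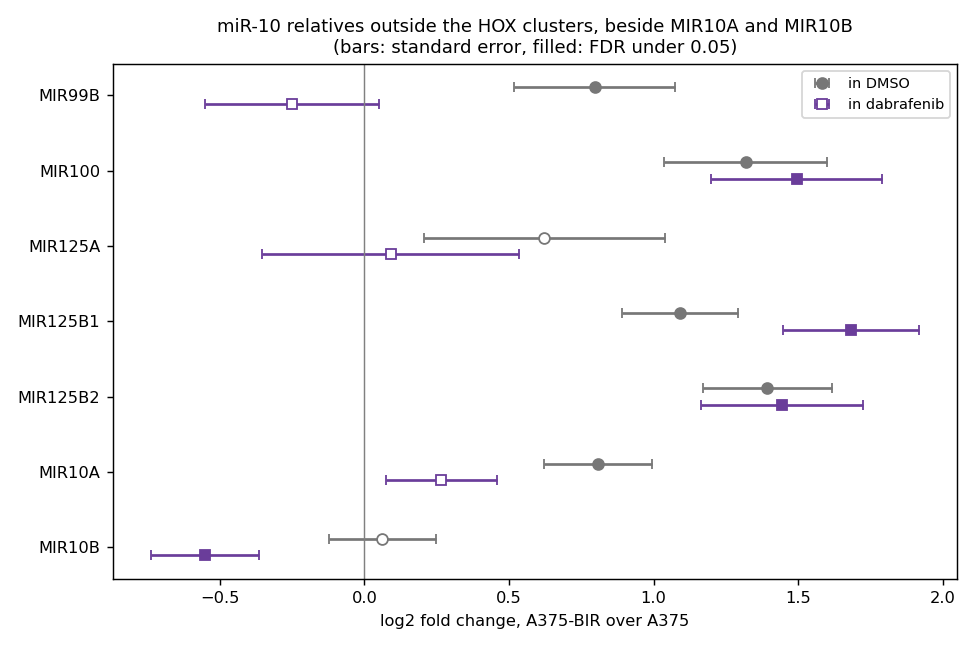
Log2 fold changes between the lines (A375-BIR over A375) of the 5 tested miR-10 relatives outside the HOX clusters, beside MIR10A and MIR10B. Bars are the SE, and filled symbols mark an edgeR FDR under 0.05. MIR100, MIR125B1 and MIR125B2 lie between 1.09 and 1.68 in both treatments, and the directions of MIR99B in dabrafenib and of MIR10B in DMSO reversed with another scaling.

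The precursors with profiles most like a member were found by the root mean square difference of centred log2 CPM over the 12 libraries, among 170 tested precursors outside the set. For MIR10A they were MIR342 (0.276), MIR23A (0.324) and MIR27B (0.33), and for MIR10B MIR181B2 (0.406), MIR181B1 (0.406) and MIR25 (0.445). For MIR196B they were MIRLET7C (0.391), MIR30A (0.485) and MIR210 (0.532). The nearest of MIR196A1 were MIR7-3 (0.547), MIR7-1 (0.587) and MIR887 (0.599), and of MIR196A2 MIR15B (0.564), MIR7-3 (0.629) and MIR222 (0.68). The likeness of the miR-196a copies (0.257) is set in part by the division of shared reads between them. Among the other pairs of members, MIR10A and MIR10B were nearest (0.516), and MIR10B and MIR196A2 were farthest apart (1.65).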

How the data were processed

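The data are 12 small RNA libraries, 3 per line and treatment. The authors trimmed the reads, removed contaminating sequences such as rRNA, aligned to hg38 and deposited an RSEM (1.2.25) expected count for each precursor gene, without normalization. Their processing notes also name R 4.0.2 and edgeR. Reads of identical copies are divided between them, so that a copy's count is an estimate. Of 1881 rows, 1879 matched a GENCODE v44 gene.

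These expected counts, after rounding to integers, were fitted in R 4.3.3 with edgeR 4.0.16 (filterByExpr, TMM, 1 mean per line and treatment, quasi-likelihood test, Benjamini-Hochberg adjustment over 175 precursors). The summed copies replaced their rows before the filter, leaving 174. Exact permutation tests used log2(CPM + 1). Precursors sharing 18 bases in a row with pre-rRNA were called rRNA-like. Alternatives were other filters, DESeq2 1.42.0 size factors and Wald test, total counts, edgeR's likelihood ratio test, fits of the libraries compared alone, summed copies or seed families, no rRNA-like rows, a replicate block and each library left out. Python 3.11.15, pandas 2.3.3, NumPy 2.4.6 and matplotlib 3.10.9 were used. The fit was tested on simulated data.

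Named were all members and the sum of the copies, the miR-10 relatives, other HOX-cluster rows with a count, and the 3 precursors nearest each tested member. Members and lists were chosen with earlier results of these data known. Same-numbered libraries of both lines in DMSO deviated together (correlations 0.105, 0.219 and 0.303), and every other pairing of groups had at least 1 correlation below 0.1. Only the line comparison in DMSO was therefore read as possibly paired. The fits reported here hold no pairs, and the replicate block was an alternative for every comparison. The numbers come from the sample labels, which give no batch.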

Additional observations from a re-analysis of the deposited data

How the results depend on the processing

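Some values reversed. For MIR10B the line difference over both treatments was 0.0053 with total counts and 0.064 with seed families summed, and its single permutation value was 0.0102 with total counts. In DMSO it was -0.11 with DESeq2's size factors and -0.11 by the Wald test, and between -0.0391 and 0.12 with a library left out. Summing seed families joined MIR10A with MIR10B and MIR196B with the copies. MIR10A and MIR10B were joined by name, since the seed of miR-10b-5p was not compared. The sums gave -0.22 for MIR10A in dabrafenib, -1.32 for MIR196B in A375 on dabrafenib, which passed the threshold, and 0.80 for the difference in response of MIR196B. These are values of the whole family.

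Other alternatives changed a call without a reversal. MIR10A was 0.064 over both treatments and 0.35 in DMSO with seed families summed, and 0.74 in dabrafenib with total counts. Its response in A375 was 0.48 with a filter of 1 CPM, 0.50 with no filter and 0.39 with total counts, and in A375-BIR it was 0.64 with seed families and between 0.30 and 0.52 with a library left out. MIR10B passed over both treatments with DESeq2's size factors (-0.34) and Wald test (-0.35). In dabrafenib it missed the threshold with a filter of 1 CPM (-0.31), no filter (-0.31), total counts (-0.0581), only the libraries compared (-0.35), seed families (-0.22) and no rRNA-like rows (-0.38), and was between -0.61 and -0.34 with a library left out. Its response in A375-BIR was 0.65 with no filter. MIR196B in dabrafenib was 1.203 by the Wald test and between 1.03 and 1.68 with a library left out.

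The summed copies in DMSO missed the threshold with DESeq2's size factors (0.47) and Wald test (0.47), and were between 0.50 and 0.74 with a library left out. With the replicate block the value was 0.63, and for the line comparison in DMSO this pairing changed no other call among the members and relatives. Over all 175 precursors 78 were called with it and 81 without. In the response of A375-BIR the block gave -0.76 for MIR196A1, which then missed the threshold. There the summed copies passed with a filter of 1 CPM (-0.83), no filter (-0.83), DESeq2's size factors (-0.70) and the likelihood ratio test (-0.61), and were between -0.70 and -0.52 with a library left out. Their difference in response passed with a filter of 1 CPM (1.49), total counts (1.78), the Wald test (1.44) and the likelihood ratio test (1.29).

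For the single copies, MIR196A1 in DMSO passed with the likelihood ratio test (0.55), only the libraries compared (0.54), copies summed (0.64), seed families (0.87) and no rRNA-like rows (0.56), and was between 0.42 and 0.67 with a library left out. MIR196A2 in DMSO missed the threshold by the Wald test (0.57). With total counts the differences in response of MIR196A1 (1.53) and MIR196A2 (1.81) passed.

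Among the relatives, MIR99B in dabrafenib was 0.0091 with a filter of 1 CPM, 0.26 with total counts and between -0.43 and 0.23 with a library left out. In A375 on dabrafenib MIR125A was -0.0102 with a filter of 1 CPM and -0.11 with total counts, MIR100 was between -0.25 and 0.0117 and MIR125B2 between -0.19 and 0.0923 with a library left out. MIR125A was between -0.30 and 0.92 in DMSO and between -0.11 and 0.33 in dabrafenib with a library left out. In A375 on dabrafenib MIR125B1 passed, as lower, with a filter of 1 CPM (-0.95), no filter (-0.93), DESeq2's size factors (-0.74) and Wald test (-0.74), total counts (-1.04), only the libraries compared (-0.74), seed families (-0.59) and no rRNA-like rows (-0.68). There MIR99B missed the threshold with a filter of 1 CPM (0.57), no filter (0.59), DESeq2's size factors (0.77) and Wald test (0.77), total counts (0.49), only the libraries compared (0.80) and no rRNA-like rows (0.85). The causes were not tested.

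The count of calls for A375-BIR on dabrafenib was 36, 19 with only the libraries compared and between 20 and 46 with a library left out. For the difference in response it was 6, 2 without rRNA-like rows and between 3 and 6 with a library left out. With total counts the cluster sums, without and with dabrafenib, were 1808 and 1869 CPM for HOXB in A375 and 3051 and 3341 in A375-BIR. Those of HOXC were 627 and 124 in A375 and 933 and 633 in A375-BIR, those of HOXD 1681 and 3336 in A375 and 1768 and 3193 in A375-BIR, and those of HOXA 95.8 and 133 in A375 and 541 and 424 in A375-BIR. The median of all tested moved with total counts by 0.23 over both treatments, 0.47 between lines in dabrafenib, -0.50 in A375 on dabrafenib and 0.47 in the difference in response. With DESeq2's size factors it moved by -0.11, -0.16 in DMSO, -0.20 in A375 and 0.12 in the difference in response, and without rRNA-like rows by 0.13 over both, 0.18 in dabrafenib, -0.16 in A375 and 0.15 in the difference in response.

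The data have limits. There is 1 resistant line, so that resistance and other changes of a selected culture cannot be told apart, and there is 1 time and 1 dose. Libraries were shallow, and low members rest on few counts. Precursor counts do not give arms or isomers. HOX mRNAs and proteins were not measured here.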

Other observations

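Of the 8 deposited rows inside the HOX clusters, the other 2 are MIR3185, at 0 counts in all 12 libraries, and MIR7704, which lies in an exon of HOXD1 and is an rRNA-like row. MIR7704 held between 4.22 and 11.8 counts per library, at 53.0 ± 5.63 CPM in A375 in DMSO, 256 ± 102 in A375 in dabrafenib, 66.3 ± 12.9 in A375-BIR in DMSO and 190.2 ± 30.6 in A375-BIR in dabrafenib (SD, n = 3). It rose on dabrafenib by 2.25 ± 0.44 in A375 (edgeR FDR = 0.00134) and 1.44 ± 0.42 in A375-BIR (edgeR FDR = 0.0278), where the share of all rRNA-like rows was higher too. Whether its counts come from HOXD1 was not tested.

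Marker lists of other cell types were summed in CPM of total counts for each library. In A375, blood cell miRNAs were at 51.8 to 107 CPM without and 21.1 to 194 CPM with dabrafenib. A375-BIR had 28.2 to 33.2 CPM without and 199.6 to 292 CPM with the drug, and these ranges did not overlap. In the same order of groups, neuronal miRNAs were at 196 to 279, 54.4 to 194, 73.3 to 224 and 250.4 to 357 CPM. MIR143 with MIR145, of fibroblasts and smooth muscle, were at 155 to 667, 325 to 543, 249 to 257 and 627 to 1113 CPM, and epithelial miRNAs at 51.8 to 98.5, 135 to 155, 74.6 to 97.7 and 16.7 to 273.1 CPM. Muscle miRNAs were between 0 and 69.0 CPM and endothelial MIR126 between 0 and 73.3. In A375-BIR the neuronal list and MIR143 with MIR145 did not overlap between treatments either, and were higher with dabrafenib. In A375 the epithelial list was higher with dabrafenib, without overlap. The neuronal list was lower there, but its ranges came as near as 194 and 196 CPM. In A375, 3 counts made 24.6 to 38.8 CPM in DMSO and 58.2 to 81.2 CPM in dabrafenib, more than this gap. In A375-BIR in DMSO they made 24.4 to 28.2 CPM, so that its blood cell sums rest on few counts. Single precursors often lacked overlap between treatments too, as given above. These lists were not tested.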
